A study of Canis lupus familiaris with 33 samples.

Results

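The homeostatic chemokines of the lymph node and their receptors were described across canine diffuse large B-cell lymphoma (DLBCL) and healthy lymph nodes. The set named 10 genes, and every probeset whose single gene symbol in the platform annotation was one of them was taken as a member. By this rule 8 genes were measured on 11 probesets, of 15115 genes and 43035 probesets on the array: the ligands CCL17, CCL19, CCL21, CXCL13 and CXCL12 and the receptors CCR4, CCR7 and CXCR5. CCL19, CXCL13 and CXCL12 had 2 probesets each and are given by the brighter one, with the other beside it. CCL22 and 1 other gene of the set had no probeset under their symbol and are not analysed here.

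Chemokines are small secreted proteins that guide cells carrying the matching G protein-coupled receptor, and the homeostatic ones are made without inflammation to keep lymphoid tissue in order. CCL19 and CCL21, made by the fibroblastic stroma of the T zone, draw T cells and mature dendritic cells through CCR7, while CXCL13, made by stroma of the follicle, draws B cells and follicular helper T cells through CXCR5. CXCL12 is a stromal chemokine of vessels, bone marrow and the dark zone of germinal centres, and CCL17, a product of activated dendritic cells, draws T cells of the helper 2 and regulatory kinds through CCR4.

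RNA of lymph nodes was hybridised to 33 Affymetrix Canine Genome 2.0 arrays, and levels are log2 values from robust multi-array averaging (RMA), which puts all arrays on 1 distribution. The 7 relapsed DLBCL arrays came from dogs of 6.4 to 11.8 years (median 8.7) biopsied 13 to 672 days (median 82) after their last treatment. The labels name the CHOP combination for 4 of these 7 dogs and other chemotherapy for 3, and 1 of the 7 was taking tramadol. The 16 naive DLBCL arrays came from dogs of 2.7 to 13.3 years (median 7.7) biopsied before chemotherapy, of which 2 were taking rimadyl, 1 doxycycline and 6 nothing, with no medication given for the other 7. By the labels the relapsed arrays were of 1 spayed female and 6 neutered males. The naive arrays were of 8 spayed females, 6 neutered males and 2 other males. Sex was not in any fit. The 10 healthy arrays were of nodes from dogs put down for conditions other than lymphoma, whose age and sex the labels do not give. DLBCL nodes were diagnostic biopsies, so the way nodes were obtained ran with DLBCL against healthy, and its part was not tested. DLBCL sample 12 (relapsed) and sample 11 (naive) came from the same dog, and healthy samples 1 to 4 came from 1 dog, called healthy dog 1. Arrays of a dog were averaged, which left 22 DLBCL dogs and 7 healthy dogs, and only the comparison of relapsed with naive nodes kept each array apart. The DLBCL dogs were of several breeds (6 breed labels among the relapsed and 10 among the naive arrays), and the labels give no breed for the healthy dogs.

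RNA was less intact in the healthy nodes. Its integrity number (RIN) averaged 9.56 ± 0.33 in relapsed DLBCL, 9.69 ± 0.28 in naive DLBCL and 7.11 ± 1.12 in healthy dogs (SD, n = 7, 16 and 7). Healthy dog 1, with 8.8 to 9.4 on its 4 arrays, was the healthy dog nearest to the tumours, and the other 6 healthy dogs had 5.8 to 7.7. Array medians lay between 6.85 and 6.97, and 17 control probesets for tag sequences foreign to the dog averaged 2.81 to 4.58, which marks the level of background. DLBCL samples 5 and 18 had the lowest median correlations with the other DLBCL arrays over all probesets (0.951 and 0.961). Results of members that turn on them are given without them too.

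In DLBCL nodes every ligand of the set that was measured was lower than in healthy nodes, as was CCR7, while CCR4 and CXCR5 did not pass the test. CCL17 was 29.5-fold lower, CCL21 6.34-fold, CCL19 3.13-fold, CXCL12 2.82-fold, CXCL13 2.06-fold and CCR7 1.62-fold. Of the 11 probesets 9 were called, all of them lower, in limma at an adjusted p under 0.05 over all probesets. Over the whole array 32.6% of probesets were called, and 13.6% as lower. The median log2 difference of the members was −1.38, beside 0.06 over all probesets. In bulk tissue, fewer cells of a type and less RNA per cell cannot be told apart.

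**Figure D1:**
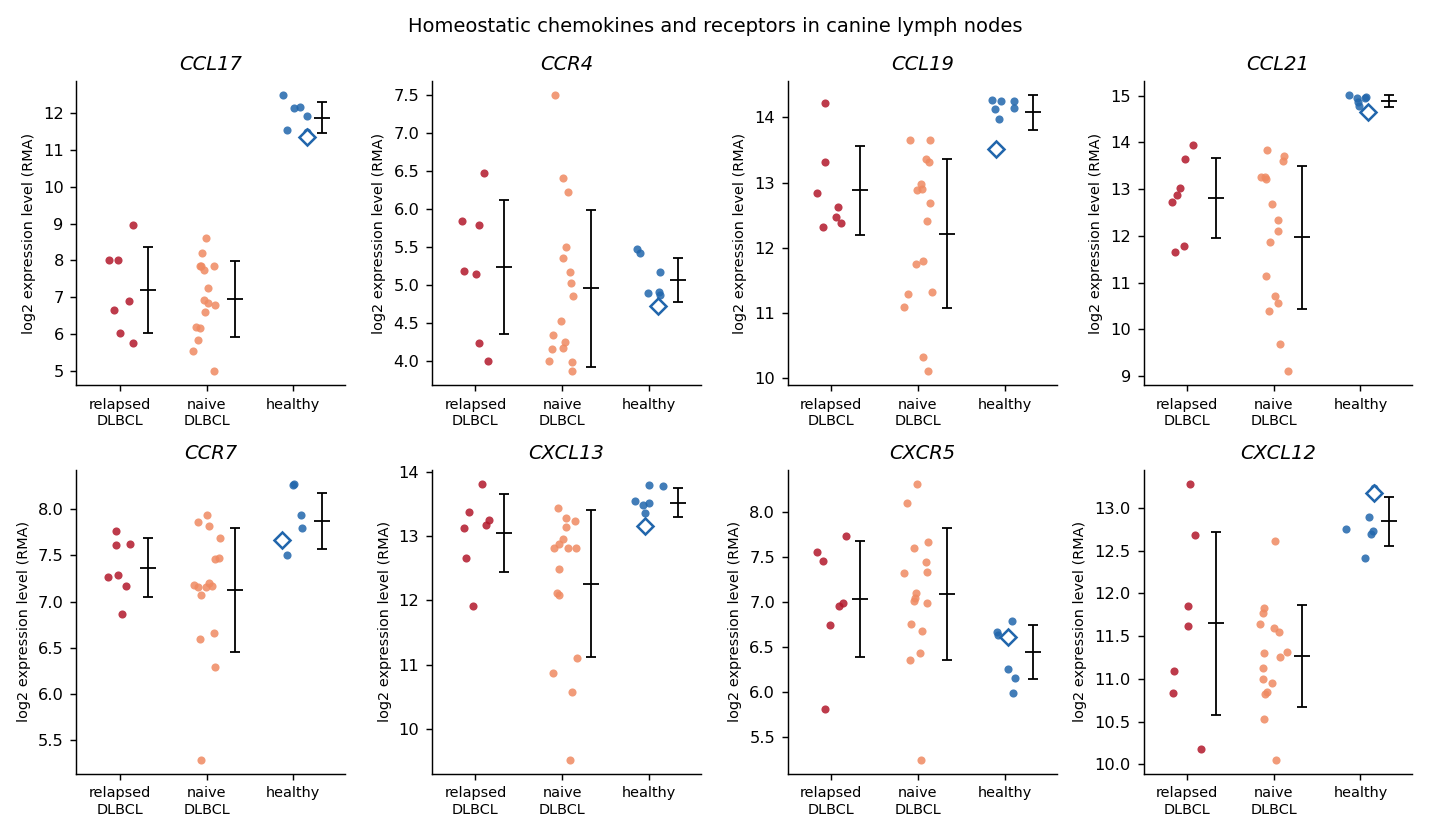
Log2 expression level (RMA, y axis) of the 8 genes, each by its brighter probeset, in relapsed DLBCL (7 arrays), naive DLBCL (16 arrays) and healthy nodes (7 dogs). Points are arrays or, for healthy, dogs, the open diamond is healthy dog 1, and the bar beside each group is the mean ± SD; the y axes do not start at 0. For CCL17 and CCL21 every DLBCL point lies under every healthy point.

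The ligand of CCR4 set the groups farthest apart. CCL17 had a lowest level of 5.77, a median of 6.91 and a highest of 8.96 in relapsed DLBCL, 5.0, 6.88 and 8.61 in naive DLBCL, and 11.34, 11.92 and 12.49 in healthy dogs. No DLBCL dog reached the healthy range. The difference of DLBCL from healthy dogs was −4.88 on the log2 scale (SE 0.38, adjusted p = 1.49e-10), the lowest of all 15115 genes when each is read from its brightest probeset. Within the tumours CCL17 spread over 3.62 log2 units (SD 1.0), against an SD of 0.42 in healthy dogs. In the RefSeq annotation of the dog (assembly UU_Cfam_GSD_1.0) only CX3CL1, a membrane-bound chemokine, lies between CCL17 and CCL22. That neighbour averaged 5.13 ± 0.19 in DLBCL dogs and 4.96 ± 0.16 in healthy dogs, a difference of 0.17 (SE 0.08, adjusted p = 0.109). Its means lay a little above the range of the tag controls (up to 4.58), so this difference is read near background.

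The receptor CCR4 had a lowest level of 4.00, a median of 5.18 and a highest of 6.46 in relapsed DLBCL, 3.86, 4.69 and 7.5 in naive DLBCL, and 4.72, 4.90 and 5.47 in healthy dogs. The DLBCL dogs lay on both sides of the healthy ones, 10 below all of them, 6 above all of them and 6 between. The log2 difference was −0.11 with a 95% interval of −0.79 to 0.57 (adjusted p = 0.832). The 10 DLBCL dogs below all healthy dogs were within the range of the tag controls (up to 4.58) for this probeset. The healthy dogs lay a little above that range. Differences and correlations of CCR4 are therefore read near background.

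Both ligands of CCR7 were lower. CCL21 had a lowest level of 11.66, a median of 12.88 and a highest of 13.94 in relapsed DLBCL, 9.11, 12.22 and 13.83 in naive DLBCL, and 14.65, 14.95 and 15.01 in healthy dogs. The DLBCL and healthy dogs did not overlap, which was so, with the DLBCL dogs lower, for 2 of the 11 member probesets (CCL17 and CCL21) and 1.08% of all probesets. The log2 difference was −2.67 (SE 0.52, adjusted p = 0.000236). Healthy nodes lay close to the highest value of any probeset on any array (15.49) and hardly varied (SD 0.13), whereas the SD over DLBCL dogs was 1.42, above that of 98.8% of all probesets.

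CCL19 had a lowest level of 12.32, a median of 12.62 and a highest of 14.22 in relapsed DLBCL, 10.11, 12.55 and 13.65 in naive DLBCL, and 13.51, 14.15 and 14.26 in healthy dogs. Of the 22 DLBCL dogs 19 lay below all healthy dogs, and DLBCL samples 3, 10 and 23 were within their range. DLBCL minus healthy was −1.65 (SE 0.40, adjusted p = 0.00198), and the other probeset gave −1.83 (SE 0.43, adjusted p = 0.00153). CCL19 and CCL21 are neighbours with 0 protein-coding genes between them in that annotation.

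CCR7, the receptor of both, changed less. It had a lowest level of 6.86, a median of 7.28 and a highest of 7.76 in relapsed DLBCL, 5.29, 7.18 and 7.94 in naive DLBCL, and 7.5, 7.79 and 8.28 in healthy dogs. The groups overlapped, with 15 DLBCL dogs below all healthy dogs and 7 within their range. On the log2 scale the difference was −0.69 (SE 0.23, adjusted p = 0.0199), and it missed the threshold without healthy sample 5 (−0.63, adjusted p = 0.0539) or healthy sample 9 (−0.63, adjusted p = 0.0514).

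The follicular ligand CXCL13 was lower and its receptor was not. CXCL13 had a lowest level of 11.91, a median of 13.18 and a highest of 13.82 in relapsed DLBCL, 9.52, 12.81 and 13.43 in naive DLBCL, and 13.16, 13.52 and 13.80 in healthy dogs. Of the DLBCL dogs 16 lay below all healthy dogs, 5 within their range and 1 (sample 18) above it. The log2 difference was −1.04 (SE 0.40, adjusted p = 0.0444), and the other probeset gave −1.38 (SE 0.50, adjusted p = 0.0326). The call on the brighter probeset was lost whichever of the 7 healthy dogs was left out (adjusted p between 0.0535 and 0.0829), and that on the other probeset without healthy sample 5, 6, 8, 9 or 10 (adjusted p between 0.0513 and 0.0694).

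CXCR5, which marks follicular B cells, had a lowest level of 5.81, a median of 6.99 and a highest of 7.74 in relapsed DLBCL, 5.25, 7.07 and 8.32 in naive DLBCL, and 5.99, 6.62 and 6.79 in healthy dogs. It was above all healthy dogs in 15 DLBCL dogs and below all of them in 2, samples 5 and 18. DLBCL dogs differed by 0.62 on the log2 scale (SE 0.27), which did not pass (adjusted p = 0.0741). Without samples 5 and 18 it was 0.77 (SE 0.20, adjusted p = 0.00316).

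CXCL12 had a lowest level of 10.18, a median of 11.62 and a highest of 13.29 in relapsed DLBCL, 10.05, 11.28 and 12.62 in naive DLBCL, and 12.41, 12.75 and 13.24 in healthy dogs. Of the 22 DLBCL dogs 20 lay below all healthy dogs, sample 23 was within their range and sample 18 above it. The single array of sample 12 (12.68) was within that range too, before it was averaged with sample 11 of the same dog. The log2 difference was −1.50 (SE 0.28, adjusted p = 0.000151). The dimmer probeset gave −0.95 (SE 0.31, adjusted p = 0.0182) and missed the threshold without healthy dog 1 (−0.76, adjusted p = 0.0700) or healthy sample 5 (−0.85, adjusted p = 0.0511), and 6 DLBCL dogs lay below all healthy dogs there. Both probesets of a gene ran together over the 22 DLBCL dogs, with a Pearson r of 0.999 for CCL19, 0.995 for CXCL13 and 0.941 for CXCL12.

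Since RIN ran with the groups, the comparison was repeated with RIN as a covariate. CCL17 alone was then called, 1 of 11 probesets (−3.99, SE 0.81, adjusted p = 0.00968), and over the whole array the calls fell to 749. The estimates of the other called probesets kept their sign, at −1.91 (SE 1.13) for CCL21, −1.11 (SE 0.86) for CCL19, −1.37 (SE 0.62) for CXCL12, −0.87 (SE 0.87) for CXCL13 and −0.49 (SE 0.50) for CCR7. The adjusted p of these 8 probesets lay between 0.281 and 0.753. Of the healthy dogs only dog 1 reached the RIN range of the tumours, so RIN and disease can hardly be told apart in this fit.

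Healthy dog 1 gave a comparison at like RIN, with 1 dog and so with no test. DLBCL dogs minus healthy dog 1 was −4.35 for CCL17, and all 22 DLBCL dogs lay below each of its 4 arrays (10.85 to 11.57). CCL21 was also below each of the 4 arrays (14.57 to 14.69) in all 22 dogs, and CXCL12 (12.96 to 13.27) in 21 of 22. For CCL19 this held in 19 dogs and for CCR7 and CXCL13 in 14 dogs each. Above all 4 arrays lay 3 dogs for CCL19, 3 for CXCL13 (6 on its dimmer probeset), 1 for CXCL12 and 0 for CCR7. The differences from healthy dog 1 were −2.43 for CCL21, −1.83 for CXCL12, −1.08 for CCL19, −0.68 for CXCL13 and −0.48 for CCR7. The share of all probesets set apart from this dog in the same way was not counted. Against the other 6 healthy dogs, healthy dog 1 was 0.62 lower in CCL17, 0.66 lower in CCL19, 0.27 lower in CCL21 and 0.42 lower in CXCL13, and 0.39 higher in CXCL12.

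**Figure D2:**
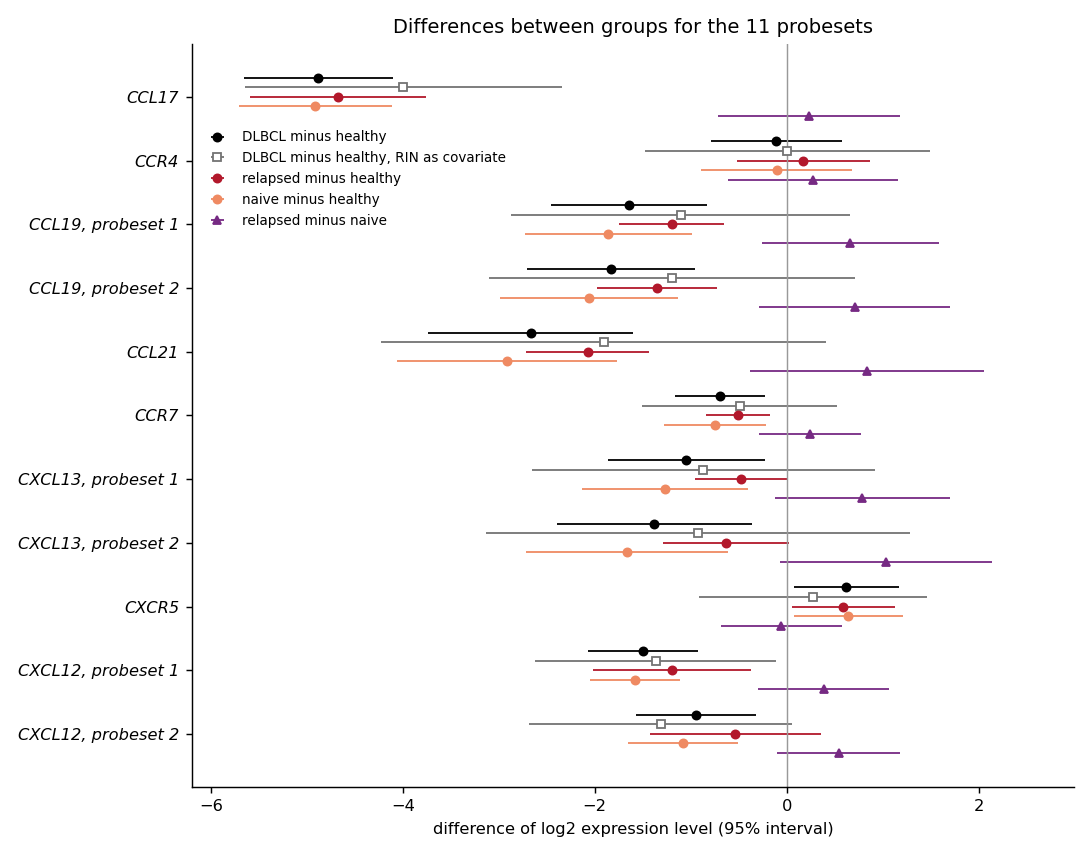
Difference of log2 expression level (x axis, tested minus reference group, with 95% intervals from limma) for the 11 member probesets in each comparison, and for DLBCL minus healthy with RIN as a covariate (open squares). CCL17 lies near −4.9 in DLBCL minus healthy and at −3.99 with RIN, and all intervals of relapsed minus naive cross 0.

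Relapsed and naive nodes were each set against the same 7 healthy dogs, so both comparisons share their controls. Of the 11 probesets 6 were called in relapsed nodes, all lower, where 20.8% of all probesets were called and 9.82% as lower. In naive nodes 9 were called, all lower, where 32.6% of all probesets were called and 13.5% as lower. With RIN as a covariate CCL17 alone was called in either comparison, with 1044 calls over the whole array in relapsed and 1764 in naive nodes. CCL17 differed from healthy by −4.68 (SE 0.43, adjusted p = 6.68e-06) in relapsed and by −4.91 (SE 0.39, adjusted p = 7.51e-09) in naive nodes. CCL21 differed by −2.07 (SE 0.30, adjusted p = 0.000354) in relapsed and by −2.91 (SE 0.55, adjusted p = 0.000287) in naive nodes.

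Both probesets of CXCL13 and the dimmer one of CXCL12 were called in naive and not in relapsed nodes. CCL19 differed by −1.20 (SE 0.26, adjusted p = 0.00486) in relapsed and by −1.86 (SE 0.42, adjusted p = 0.00154) in naive nodes. CXCL12 differed by −1.19 (SE 0.38, adjusted p = 0.0397) in relapsed and by −1.58 (SE 0.23, adjusted p = 1.37e-05) in naive nodes, and its dimmer probeset by −0.54 (SE 0.42, adjusted p = 0.398), not called, in relapsed and by −1.08 (adjusted p = 0.00457) in naive nodes. CXCL13 differed by −0.47 (SE 0.23, adjusted p = 0.159) in relapsed, which did not pass, and by −1.26 (SE 0.42, adjusted p = 0.0230) in naive nodes. CCR7 differed by −0.51 (SE 0.16, adjusted p = 0.0343) in relapsed and by −0.75 (SE 0.26, adjusted p = 0.0273) in naive nodes. Its call was lost in relapsed nodes without healthy sample 5, 8 or 9 (adjusted p between 0.0594 and 0.0738) and in naive nodes without healthy sample 5 or 9 (adjusted p of 0.0650 and 0.0623). Neither receptor left was called: CXCR5 differed by 0.59 (SE 0.25, adjusted p = 0.111) in relapsed and by 0.64 (SE 0.28, adjusted p = 0.0773) in naive nodes, and CCR4 by 0.17 (SE 0.32, adjusted p = 0.749) in relapsed and by −0.10 (SE 0.38, adjusted p = 0.861) in naive nodes. Without sample 18 relapsed nodes passed for CXCL13 (−0.60, adjusted p = 0.0478) and CXCR5 (0.79, adjusted p = 0.00535), and the CXCL12 call in relapsed nodes was lost without any 1 of healthy dog 1 and healthy samples 5, 6, 8, 9 and 10 (adjusted p between 0.0574 and 0.0776).

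A call in one of these comparisons and not in the other does not show that relapsed and naive nodes differ, and the direct test called 0 of the 11 probesets. It called 0.0% of all probesets too. At an unadjusted p under 0.05 it gave 0 of the 11 members and 4.78% of all probesets. A fit with the dog as a random block also called 0. Only 1 dog had 2 arrays here, so its correlation within a dog (0.576) was taken from the fit of DLBCL and healthy arrays. Read from the brighter probesets, the largest estimates were for CCL21, 0.84 higher in relapsed nodes (95% interval −0.38 to 2.05), CXCL13, 0.79 higher (−0.12 to 1.70; 1.03 higher on its dimmer probeset, −0.07 to 2.14), and CCL19, 0.66 higher (−0.26 to 1.58). All adjusted p of the members lay between 0.989 and 0.996. CCL17 differed by 0.23 (−0.72 to 1.19), CXCL12 by 0.39 (−0.30 to 1.07), CCR4 by 0.28 (−0.61 to 1.16), CCR7 by 0.24 (−0.29 to 0.77) and CXCR5 by −0.05 (−0.69 to 0.58). The intervals of the 5 ligands and of CCR4 reached past 1 log2 unit on the higher side, and none of the intervals reached −1.

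The day in an array's name was known for 18 DLBCL arrays. On day 1, with 2 relapsed and 6 naive arrays, relapsed minus naive was 1.58 for CCL19, 1.33 for CCL21, 0.87 for CXCL13 and 0.31 for CCL17. On day 2, with 3 relapsed and 4 naive arrays, it was 0.27 for CCL19, 0.08 for CCL21, 0.72 for CXCL13 and −0.91 for CCL17. CCR4 (0.14 on day 1 and −0.49 on day 2), CCR7 (−0.24 and 0.16) and CXCL12 (0.15 and −0.12) changed sign between the days, as CCL17 did. These are values of a few arrays, with no test. Day 3 held 3 naive arrays and no relapsed one.

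The dog biopsied in both states gave 1 pair and no test. CCL17 was 8.96 in its relapsed and 6.81 in its naive biopsy, a difference of 2.16 log2 units, and CXCL12 was 12.68 in the relapsed and 11.60 in the naive biopsy, a difference of 1.08. CCL19 was 0.87 higher at relapse, CCL21 0.62 higher and CXCL13 0.37 higher, while CCR4 was 1.03 lower and CXCR5 0.46 lower. Over all probesets 95 percent of the differences between these 2 arrays were under 0.77 in size. Its relapsed biopsy held the highest CCL17 of all 23 tumour arrays.

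Among the 7 relapsed arrays the ligands did not share one order. Sample 3, taken 82 days after treatment, had the highest CCL19 (14.22) and CCL21 (13.94) with a CCL17 of 6.03. Sample 18, taken 76 days after treatment, had the highest CXCL13 (13.82) and CXCL12 (13.29) and the lowest CXCR5 (5.81) and CCR4 (4.00). Sample 4, taken 672 days after treatment, had the lowest CCL17 (5.77), CXCL13 (11.91) and CXCL12 (10.18).

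Across the 22 DLBCL dogs the ligands of the T zone and follicle ran together, as a description of arrays that share their normalisation. Pearson r was 0.901 between CCL19 and CCL21, 0.674 between CCL19 and CXCL13 and 0.601 between CCL21 and CXCL13. CCL17 had r of 0.543 with CCL21, 0.470 with CXCL12 and 0.359 with CCL19. CCR4 had no r beyond −0.173 to 0.225 with any other member. Sample 20 held the lowest CCL19 and CCL21 and sample 22 the lowest CXCL13.

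**Figure D3:**
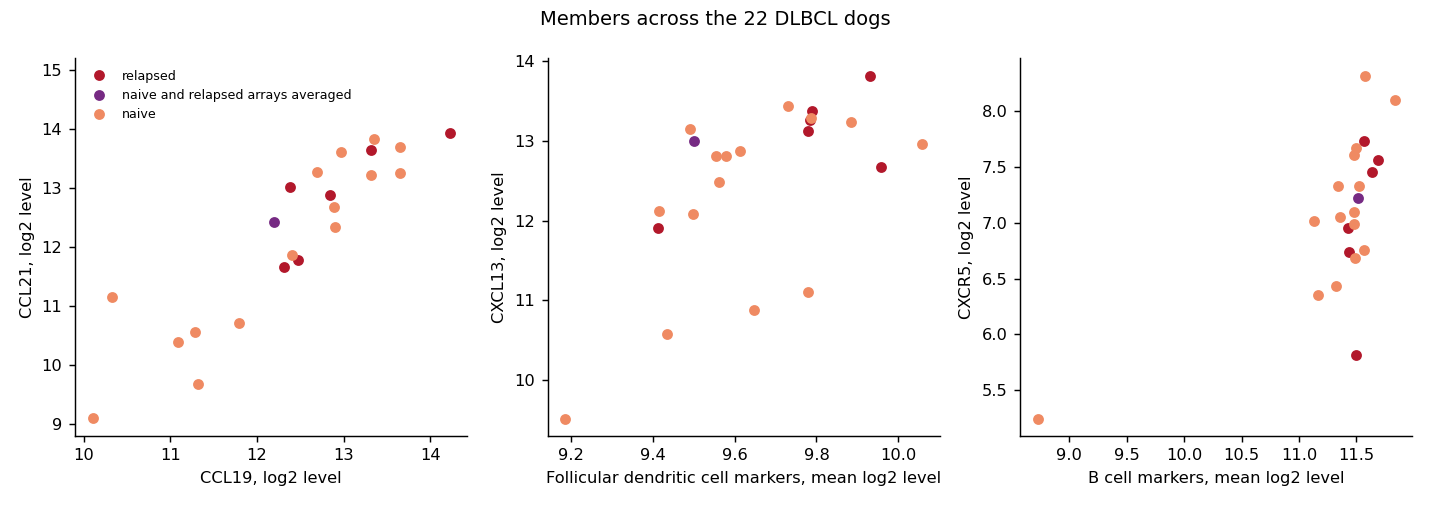
CCL21 against CCL19 (left), CXCL13 against the mean of 6 follicular dendritic cell markers (middle) and CXCR5 against the mean of 11 B cell markers (right) across the 22 DLBCL dogs, in log2 expression levels; red points are relapsed, orange naive, and the purple point is the dog with an array in each state. CCL19 and CCL21 lie along 1 line (r = 0.901), and the dog at the far left of the right panel is sample 5, with a B cell marker mean of 8.73.

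Ligands and their own receptors did not run together detectably over the same dogs, in 4 relations tested by permutation and adjusted over the 4. For CXCL13 and CXCR5 r was 0.332 (permutation p = 0.130, adjusted 0.260) and Spearman's rho 0.171 (p = 0.442, adjusted 0.589), and r was −0.073 without the 2 dogs farthest from the median of CXCL13. For CCL21 and CCR7 r was 0.354 (permutation p = 0.105, adjusted 0.260) and rho 0.181 (p = 0.418, adjusted 0.589), and for CCL19 and CCR7 r was 0.267 (permutation p = 0.226, adjusted 0.302) and rho 0.173 (p = 0.438, adjusted 0.589). Without the 2 dogs farthest from the median of the ligand r was 0.098 and 0.357. For CCL17 and CCR4 r was 0.126 (permutation p = 0.579, adjusted 0.579) and rho 0.101 (p = 0.653, adjusted 0.653), and r was 0.292 without 2 such dogs. Within array days 1 and 2, of 7 dogs each, r was −0.048 and −0.438 for CCL17 and CCR4, 0.307 and 0.225 for CCL19 and CCR7, 0.413 and 0.082 for CCL21 and CCR7, and −0.320 and 0.073 for CXCL13 and CXCR5.

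Markers of the cells that make or carry these proteins moved between the groups too. Like the pathway lists further on, they were counted in the fit without RIN. With RIN as a covariate their calls were not tested, and over the whole array that covariate took calls from 14018 to 749. Among all genes, each read from its brightest probeset, 14.8% were called lower and 20.0% higher in DLBCL. Of 14 T cell markers 12 were lower and 0 higher, among them CD5 (−3.58, SE 0.30, adjusted p = 6.05e-10) and the kinase LCK (−3.00, SE 0.29, adjusted p = 6.76e-09). The mean level of the list ran from 7.19 to 9.28 in DLBCL dogs, against 9.74 to 10.91 in healthy dogs, with no overlap. Of 12 markers of follicular helper and regulatory T cells, the cells that CXCL13 and CCL17 draw, 8 were lower and 0 higher. The inhibitory receptor CTLA4 differed by −4.45 (SE 0.62, adjusted p = 3.13e-06) and the regulatory T cell factor FOXP3 by −1.73 (SE 0.18, adjusted p = 2.70e-08). The 4 not called were PDCD1, BTLA, IL2RA and TOX2. The mean level of the 12 ran from 6.47 to 8.07 in DLBCL dogs and from 8.02 to 8.77 in healthy dogs.

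Of 13 dendritic cell markers 8 were lower and 1 (the factor ZBTB46) higher. The costimulatory ligand CD80 differed by −1.98 (SE 0.23, adjusted p = 2.49e-07) and CD83, a marker of mature dendritic cells, by −1.53 (SE 0.30, adjusted p = 0.000223), whereas LAMP3, another such marker, differed by 0.38 (SE 0.38, adjusted p = 0.474). The mean level ran from 8.11 to 9.70 in DLBCL dogs and from 9.54 to 10.01 in healthy dogs. None of the T cell or dendritic cell markers averaged under 5 in DLBCL dogs.

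The stromal and vascular lists moved less. Of 12 markers of fibroblastic stroma 2 were lower (the receptor PDGFRB and the actin ACTA2) and 1 higher (the proteoglycan LUM), with means of 7.82 to 10.51 in DLBCL dogs and 8.51 to 10.29 in healthy dogs. Against the same healthy dogs, 5 stromal markers were higher and 1 lower in relapsed nodes, and 0 were higher and 4 lower in naive nodes. Over all 43035 probesets, 4745 were called higher and 4226 lower in relapsed nodes, and 8186 higher and 5829 lower in naive nodes. Shares over genes are not given for these comparisons. The direct test of relapsed against naive nodes called 0 probesets of the array. Of 6 follicular dendritic cell markers 2 were lower (PRNP and the adhesion molecule VCAM1), with means of 9.19 to 10.06 in DLBCL dogs and 9.74 to 9.98 in healthy dogs. Of 10 endothelial markers 3 were lower (KDR, TEK and VWF), with means of 7.83 to 9.03 in DLBCL dogs and 8.57 to 9.62 in healthy dogs. Of 11 markers of macrophages and monocytes 3 were lower, led by the scavenger receptor MARCO (−2.11, SE 0.53, adjusted p = 0.00267), and limma called 0 of 5 neutrophil markers, also 0 at an unadjusted p under 0.05. Of 11 B cell markers 4 were higher and 0 lower, among them the kinase BLK (1.17, SE 0.25, adjusted p = 0.000497), the adaptor BLNK (1.02, SE 0.27, adjusted p = 0.00479) and CD79A (0.72, SE 0.20, adjusted p = 0.00639), with means of 8.73 to 11.83 in DLBCL dogs and 10.22 to 11.05 in healthy dogs. Against the same healthy dogs 7 of these B cell markers were higher in relapsed and 4 in naive nodes, with 0 lower in either. Of all 43035 probesets 4745 and 8186 were called higher in these comparisons. The DLBCL mean of 8.73 was that of sample 5, and the next dog was at 11.13 (sample 10). The count was not repeated without sample 5.

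How far a member followed the list of its likely source or carrier was measured across the 22 DLBCL dogs in 8 relations, adjusted together. CXCR5 ran with the B cell markers (r = 0.670, permutation p = 0.000330, adjusted 0.00264; rho = 0.673, p = 0.000900, adjusted 0.00720). It did so without the 2 dogs farthest from the median of the list (r = 0.596, adjusted p = 0.0465). CXCL13 ran with the follicular dendritic cell markers (r = 0.607, permutation p = 0.00212, adjusted 0.00848; rho = 0.595, p = 0.00433, adjusted 0.0173), and without 2 such dogs r was 0.459 (adjusted p = 0.168). Within array days 1 and 2, of 7 dogs each, r was 0.696 and 0.274 for CXCR5 and 0.410 and 0.878 for CXCL13, none of which passed after adjustment (exact permutation, adjusted p from 0.108 to 0.614).

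The other 6 relations did not pass. With the fibroblastic stroma r was 0.310 for CCL19, 0.247 for CCL21 and 0.103 for CXCL12, with the dendritic cell markers 0.242 for CCL17, and with the T cell markers −0.125 for CCR4 and −0.230 for CCR7 (adjusted permutation p from 0.409 to 0.649). Spearman's rho of these 6 lay between −0.172 and 0.385 (adjusted p from 0.208 to 0.896).

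**Figure D4:**
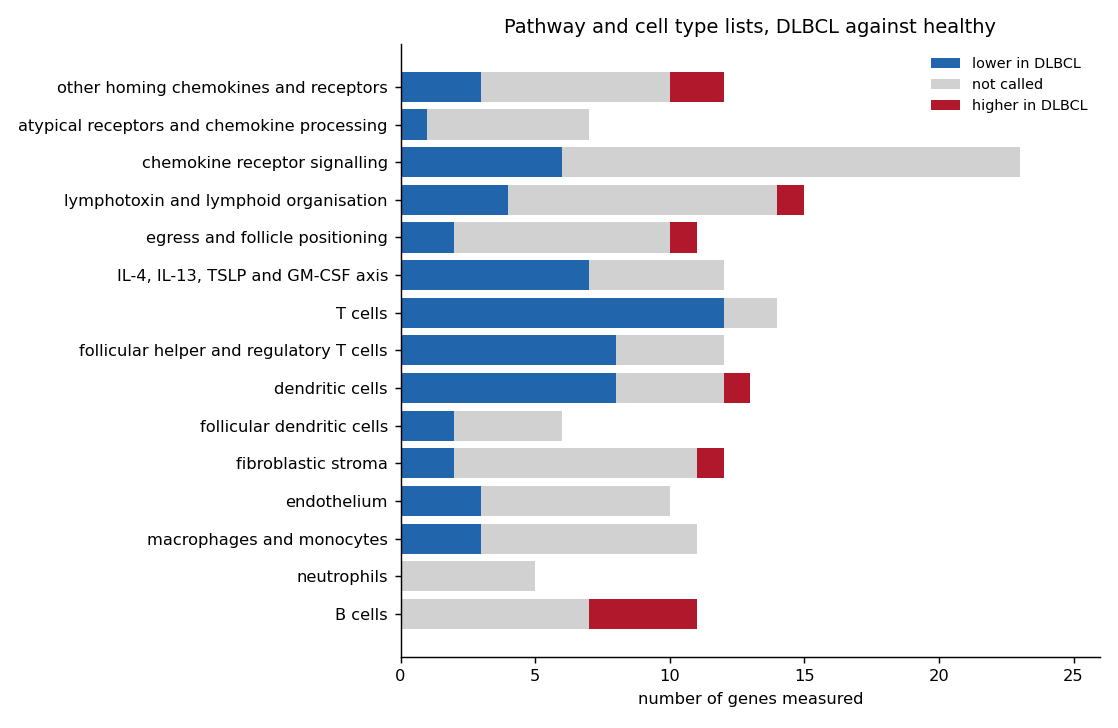
Number of measured genes (x axis) of 6 pathway lists and 9 cell type lists that were lower, not called or higher in DLBCL against healthy dogs (limma, adjusted p under 0.05). RIN was not in this fit. T cell markers were lower in 12 of 14 genes, and the B cell list held 4 of the higher calls.

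Genes around the members in the same pathways were counted the same way. Of 12 other homing chemokines and receptors 3 were lower and 2 higher. CCR8, a receptor of regulatory and skin-homing T cells, was lowest (−3.09, SE 0.18, adjusted p = 5.90e-13), at 3.66 ± 0.34 in DLBCL dogs, within the range of the tag controls, and 6.75 ± 0.62 in healthy dogs. The receptor CXCR6 (−0.99, adjusted p = 0.0118) and its ligand CXCL16 (−0.78, adjusted p = 0.0120) were both lower, and CCR6, a receptor on B cells (0.80, adjusted p = 0.0365), and the gut ligand CCL25 (0.33, adjusted p = 0.0245) were higher. Of 7 atypical receptors and chemokine-processing enzymes only DPP4, a peptidase that trims chemokines such as CXCL12, was called, at −2.33 (SE 0.23, adjusted p = 1.23e-08), and the scavenging receptor ACKR3 differed by −0.25 (SE 0.32, adjusted p = 0.584).

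Of 23 genes of chemokine receptor signalling 6 were lower and 0 higher. They included the Rac exchange factor TIAM1 (−2.47, SE 0.20, adjusted p = 4.76e-10), RGS13 (−3.13, SE 0.58, adjusted p = 0.000114) and RGS1 (−2.22, SE 0.49, adjusted p = 0.000767), which damp G protein signals, and the receptor kinase GRK5 (−1.10, SE 0.23, adjusted p = 0.000457). Of 15 genes of lymphotoxin signalling and lymphoid organisation, the pathway that maintains the stroma making these chemokines, 4 were lower and 1 higher. TNFSF11, the ligand RANKL, differed by −1.74 (SE 0.32, adjusted p = 0.000103), the lymphotoxin receptor LTBR by −1.03 (SE 0.29, adjusted p = 0.00759), RELB by −0.52 (SE 0.12, adjusted p = 0.00116) and TNFRSF14 by −0.32 (SE 0.08, adjusted p = 0.00267), and the kinase CHUK was the one called higher.

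Of 11 genes of egress and follicle positioning 2 were lower and 1 higher. CD69, which holds lymphocytes in the node, was among the lower ones (−0.64, SE 0.22, adjusted p = 0.0285), and the G protein subunit GNA13 was higher (0.41, SE 0.16, adjusted p = 0.0468). Of 12 genes of the interleukin-4, interleukin-13, TSLP and GM-CSF axis, whose cytokines induce CCL17 in dendritic cells and keratinocytes, 7 were lower and 0 higher. GATA3, the factor of helper 2 T cells, differed by −3.04 (SE 0.37, adjusted p = 3.65e-07) and the receptor IL4R by −0.33 (SE 0.05, adjusted p = 2.48e-05). IL4 and IL13 differed by −1.03 (SE 0.17) and −0.66 (SE 0.12), with DLBCL means of 3.70 and 4.19 that lay within the range of the tag controls.

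The genes most like each member over the 22 DLBCL dogs are given by Pearson r as a description. CCL19 was nearest to C1R (0.901), CLIC2 (0.891) and SEPTIN4 (0.875), and CCL21 to CLIC2 (0.830) and ROR1 (0.829). CXCL13 was nearest to SLCO3A1 (0.897), MIOX (0.894) and ST8SIA1 (0.863), and CXCL12 to PTGDS (0.873), SLC44A3 (0.815) and ECM2 (0.802). CCL17 had lower values, with HOXA5 (0.763), MEOX2 (0.727) and JCAD (0.726). Of the receptors, CXCR5 was nearest to FAM126A (0.876), CYB5RL (0.866) and POLR1A (0.856), CCR7 to MYO5C (0.812), CD2AP (0.791) and GXYLT1 (0.790), and CCR4 to PTPN22 (0.708), VAV2 (0.698) and KCNJ12 (0.684). CLIC2 stood among the nearest 3 of both CCR7 ligands, and none of these genes belonged to the lists above.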

How the data were processed

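Samples were grouped from the labels: disease state, and previous chemotherapy for relapsed and naive DLBCL. The authors scanned the arrays, used the Affymetrix Expression Console for RMA, and deposited the log2 values, 1 per probeset and array, from 2.20 to 15.49. Software versions of these steps were not given in the sources used here. The number of arrays limits the precision. RMA cannot show a change of total RNA per cell and compresses changes of dim probesets. RNA was extracted in 2 batches stated to be balanced and random, whose members are not known here, and array names dated on the same 3 days could not be tied to single healthy samples. Batch effects on DLBCL against healthy nodes were therefore not tested.

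Gene symbols came from the platform annotation: 29264 of 43035 probesets had 1 symbol, 439 several and 13332 none. The test was that of limma 3.58.1 (R 4.3.3), with Benjamini-Hochberg adjustment over all probesets and a call at an adjusted p under 0.05. limma took the place of the analysis of variance of the methods, which was run as an alternative. Correlations used 100000 permutations, or all of them for 7 dogs, two-sided, in Python 3.11.15 with numpy 2.4.6, scipy 1.17.1 and pandas 2.3.3, and plots used matplotlib 3.10.9. A list's mean level is the mean log2 level of its measured genes. The fits were tested on simulated data of 43035 probesets, 50 of them shifted by each amount: shifts of 0.5, 1 and 2 log2 units were found in 52%, 82% and 100% of cases for DLBCL against healthy (9 false calls), and a shift of 1 in 84% for relapsed against naive. The shifted probesets were drawn from the whole array, with independent noise. The SD of the member probesets over DLBCL dogs lay above that of 86.5% to 98.8% of all probesets. The shares found therefore do not give the power for the members, which was not measured.

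The members, lists and tests were chosen with earlier results of these data known. Named genes are the members, each by its probeset of highest mean over all dogs, up to 4 genes of lowest p per list, list genes that define a cell type, and the 3 genes most correlated with each member, of which 1 is a locus with no gene name and is not given. CX3CL1, CCR6, CHUK, ACKR3, ZBTB46, LAMP3, PDCD1, BTLA, IL2RA and TOX2 were added after their values were seen. Alternatives changed the scaling, the filter on dim probesets, the probeset summary, the treatment of repeated arrays, RIN, array day and the samples left out. No sequences were used.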

Additional observations from a re-analysis of the deposited data

Results flagged for a closer look

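One value stood apart from its group. In CCL19 (brighter probeset) healthy dog 1 was the lowest of the 7 healthy dogs, at 13.51, with the next at 13.98, a gap that took 0.618 of the group's range and lay above the 95% limit for 7 values. It was the 1 flag among 22 groups tested, where chance flags about 1 in 20. Healthy dog 1 also differed from the others in RIN (8.8 to 9.4, against 5.8 to 7.7) and had the highest mean levels of macrophage and monocyte (12.05), neutrophil (10.18) and fibroblastic stroma (10.29) markers and the lowest of T cell markers (9.74) among the healthy dogs. The part of these in its CCL19 level was not tested. Without this dog the CCL19 difference of DLBCL from healthy was −1.74.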

How the results depend on the processing

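With RIN as a covariate 1 probeset and 1 gene, CCL17, were called in each of DLBCL, relapsed and naive nodes against healthy ones, and CCR4 then differed by 0.0083, −0.044 and 0.21. In relapsed nodes CXCL13 turned to 0.14 and 0.34 on its 2 probesets. Leaving out 1 healthy dog at a time gave 5 to 8 member probesets and 4 to 5 genes in DLBCL (5 probesets without healthy sample 5), 4 to 6 probesets and 3 to 5 genes in relapsed nodes (3 genes without healthy sample 5, 8 or 9), and 8 to 9 probesets and 5 to 6 genes in naive nodes. Over all 43035 probesets these fits called 12109 to 13101 in DLBCL, 7056 to 8212 in relapsed and 12256 to 13278 in naive nodes. CCR4 also turned positive in DLBCL with all arrays taken as separate samples, in the methods' analysis of variance (0.084 in both) and in the fit with the sample number as a replicate block (0.11). CXCR5 passed with all arrays as separate samples (0.58, adjusted p = 0.0344) and in that analysis of variance (adjusted p = 0.0414). The replicate block called 9 of 11 probesets and 6 genes (14192 over all probesets), and the numbers do not pair the samples.

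Of relapsed minus naive, CCL17 turned to −0.070 without the dog that gave both arrays. With array day as a block CCL17 was −0.34, CCR4 −0.19 and CCR7 −0.026. CXCR5 was 0.021 with RIN and 0.027 without samples 5 and 18. Among ligands and receptors, r of CCL17 and CCR4 was −0.048 on array day 1 and −0.438 on day 2, and that of CXCL13 and CXCR5 −0.073 without the 2 farthest dogs and −0.320 on day 1. Alternatives for the relations with cell lists were chosen after seeing the data: T cells and CCR4 turned to 0.328 on day 1, T cells and CCR7 to 0.046 without samples 5 and 18 and 0.212 on day 1, and stroma and CXCL12 to −0.246 on day 1. CXCL13 and the follicular dendritic cell markers missed the threshold without samples 5 and 18 (r = 0.541, adjusted permutation p = 0.0551).

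Of the values of single probesets under all alternatives, 549 kept direction and side of the threshold, 53 lost their call, 7 gained one and 14 turned; quantile normalisation and centring left the calls of all 11 probesets in DLBCL against healthy as they were. A fold change over 2 beside the adjusted p left 2678 of 14018 calls over all probesets in DLBCL. The 2 ligand and receptor pairs with genes not analysed here were not run. Changes are measured least well near the tag controls and near the top of the scale.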
